A study of Mus musculus with 15 samples.

Results

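The regions described here are 2035 windows of 3 kb that were under a set limit of H3K4Me1 in pre-B cells, stayed under a limit of H3K27Ac until 12 hr after induction of C/EBPα, and were strongly acetylated at 48 hr. They will be called late windows. Chromosomes 1 to 19 and X of the mouse (build mm9) were tiled from position 0, and 832530 windows that held a tag in at least 1 library were mappable. The level of a window is its number of distinct tag positions over the mean of all mappable windows in that library, so a level of 1 is the library mean. A late window had H3K4Me1 below 2 at 0 hr post-induction (hpi), H3K27Ac below 1.5 at 0, 3 and 12 hpi, and H3K27Ac of 4 or more at 48 hpi. These were 0.244% of the mappable windows and 0.28% of the 725698 that met the low limits, which will be called eligible. The limit of 4 at 48 hpi was met by 5.07% of all mappable windows. The windows were thus chosen by H3K27Ac at 0, 3, 12 and 48 hpi and H3K4Me1 at 0 hpi, so these values are a description and support nothing. H3K27Ac at 24 hpi, H3K4Me1 from 3 hpi on and H3K27Me3 at all times were not used.

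The study followed C10 cells, a line made from HAFTL mouse pre-B cells that carries an estradiol-inducible C/EBPα fused to the estrogen receptor hormone-binding domain and a GFP reporter. Cells received 100 nM of β-estradiol together with the cytokines IL-3 and CSF-1 (10 nM, as labelled), and controls received 0.1% ethanol, the solvent. Chromatin was immunoprecipitated with antibodies to H3K4Me1, H3K27Ac and H3K27Me3 at 0, 3, 12, 24 and 48 hpi. There was 1 library for each mark and time, so no difference between times has a replicate check or a test, C10 is a single line, and all intervals below cover counting error only.

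Enhancers are stretches of DNA at which transcription factors bind and from which they raise the activity of genes, often at a distance. Active enhancers carry acetylated lysine 27 on histone H3 (H3K27Ac), H3K4Me1 marks enhancers whether or not they are active, and H3K27Me3 is laid down by Polycomb proteins over silent regions. C/EBPα and PU.1 are the transcription factors that turn blood progenitors toward macrophages, and AP-1 is a family of Fos and Jun dimers that binds many macrophage enhancers.

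The sequences of 5 late windows are given as examples. They are the window with the highest H3K27Ac at 48 hpi, 7.1 kb upstream of Arl11, and the strongest late window near each of Spp1, Fpr1, Trem1 and Cxcl1, macrophage genes whose surroundings are described further on. The last 4 were taken as the highest of the windows near listed genes, a choice made after their values were seen. Each run is the 300 bp of the window with most H3K27Ac positions at 48 hpi, read from mm9 (NCBIM37) on the plus strand, and none overlapped an annotated exon. Capitals mark matches to any of 8 motifs, listed further on, that were searched on both strands. The runs lie at chr14:61920901-61921200 (Arl11), chr5:104813401-104813700 (Spp1), chr17:18009001-18009300 (Fpr1), chr17:48321601-48321900 (Trem1) and chr5:91327201-91327500 (Cxcl1).
Arl11: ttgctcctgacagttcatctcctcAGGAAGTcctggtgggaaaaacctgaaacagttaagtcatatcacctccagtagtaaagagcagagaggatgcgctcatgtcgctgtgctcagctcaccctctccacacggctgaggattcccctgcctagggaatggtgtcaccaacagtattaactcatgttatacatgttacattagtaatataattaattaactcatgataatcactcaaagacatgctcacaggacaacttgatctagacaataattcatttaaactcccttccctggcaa
Spp1: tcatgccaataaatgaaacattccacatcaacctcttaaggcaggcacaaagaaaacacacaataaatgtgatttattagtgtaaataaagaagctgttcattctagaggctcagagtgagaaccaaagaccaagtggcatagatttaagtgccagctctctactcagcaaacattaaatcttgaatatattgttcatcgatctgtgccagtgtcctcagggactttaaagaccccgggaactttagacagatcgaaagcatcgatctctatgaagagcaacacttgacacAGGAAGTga
Fpr1: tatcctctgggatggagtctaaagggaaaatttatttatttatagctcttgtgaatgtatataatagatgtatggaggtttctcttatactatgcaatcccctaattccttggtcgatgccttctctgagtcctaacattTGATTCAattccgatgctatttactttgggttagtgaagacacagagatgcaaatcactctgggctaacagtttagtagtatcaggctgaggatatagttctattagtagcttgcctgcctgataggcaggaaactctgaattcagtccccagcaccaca
Trem1: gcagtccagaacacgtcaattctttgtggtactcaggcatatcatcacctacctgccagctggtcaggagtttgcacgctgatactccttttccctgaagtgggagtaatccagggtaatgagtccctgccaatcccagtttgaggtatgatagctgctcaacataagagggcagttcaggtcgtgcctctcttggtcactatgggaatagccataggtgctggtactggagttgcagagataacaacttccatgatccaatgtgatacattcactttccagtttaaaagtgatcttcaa
Cxcl1: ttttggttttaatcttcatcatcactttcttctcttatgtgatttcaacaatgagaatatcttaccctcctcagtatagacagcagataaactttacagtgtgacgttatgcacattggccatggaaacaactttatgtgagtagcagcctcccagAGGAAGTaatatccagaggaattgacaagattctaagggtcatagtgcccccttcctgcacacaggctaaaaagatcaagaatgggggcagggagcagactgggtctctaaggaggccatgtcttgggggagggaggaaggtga
The Arl11, Spp1 and Cxcl1 runs each held a match to the PU.1 motif AGGAAGT, at bases 25 to 31, 292 to 298 and 157 to 163 of the run. The Fpr1 run held a match to the AP-1 motif as searched here, TGANTCA with any base at N, at bases 141 to 147. This match read TGATTCA, and all AP-1 shares below count any middle base alike. No motif letters were found in the Trem1 run. These runs are not typical in this respect. PU.1 letters were in 11.7% and AP-1 letters in 15.8% of the late segments, against 7.98% and 9.67% in all mappable windows.

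The 8 windows highest in H3K27Ac at 48 hpi were below 1.5 times the library mean up to 12 hpi and stood at 24.7 to 39.8 times the mean at 48 hpi. The window upstream of Arl11, a small GTPase of the Arf family, held 15, 13, 22, 160 and 784 H3K27Ac positions at 0, 3, 12, 24 and 48 hpi, with an exact 95% Poisson interval of 730 to 841 at 48 hpi. Its H3K4Me1 positions numbered 11, 23, 41, 107 and 147 at the same times. Both marks were therefore low at first and high at the end, with H3K4Me1 above its low limit already at 12 hpi. A window between genes 32.3 kb upstream of Ypel2 held 14, 17, 27, 272 and 746 H3K27Ac positions. The window over the start of Zfand2a, whose protein binds the proteasome under arsenite stress, held 14, 17, 25, 307 and 639. At 24 hpi these windows had covered 16.8%, 31.6% and 42.7% of the distance between their levels at 12 and 48 hpi.

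The other windows of this group lay within or near Hsd17b12, a ketoacyl-CoA reductase of fatty acid elongation, Ust, a sulfotransferase of proteoglycan chains, Atp10b, a lipid flippase, Gm9912 and Gpr158, a receptor best known from neurons. The intronic window 188.1 kb downstream of the start of Ust held 11, 9, 12, 102 and 570 H3K27Ac positions. The Hsd17b12 window held 10, 17, 28, 106 and 577. The intronic Atp10b window held 11, 19, 27, 353 and 570, so its level at 24 hpi had covered 55.9% of the distance between 12 and 48 hpi. The share was 48.6% at Gpr158, and it was smallest of the 8 at Hsd17b12 with 12.9% and at Ust with 14.9%. The plot of single windows shows these courses.

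**Figure D1:**
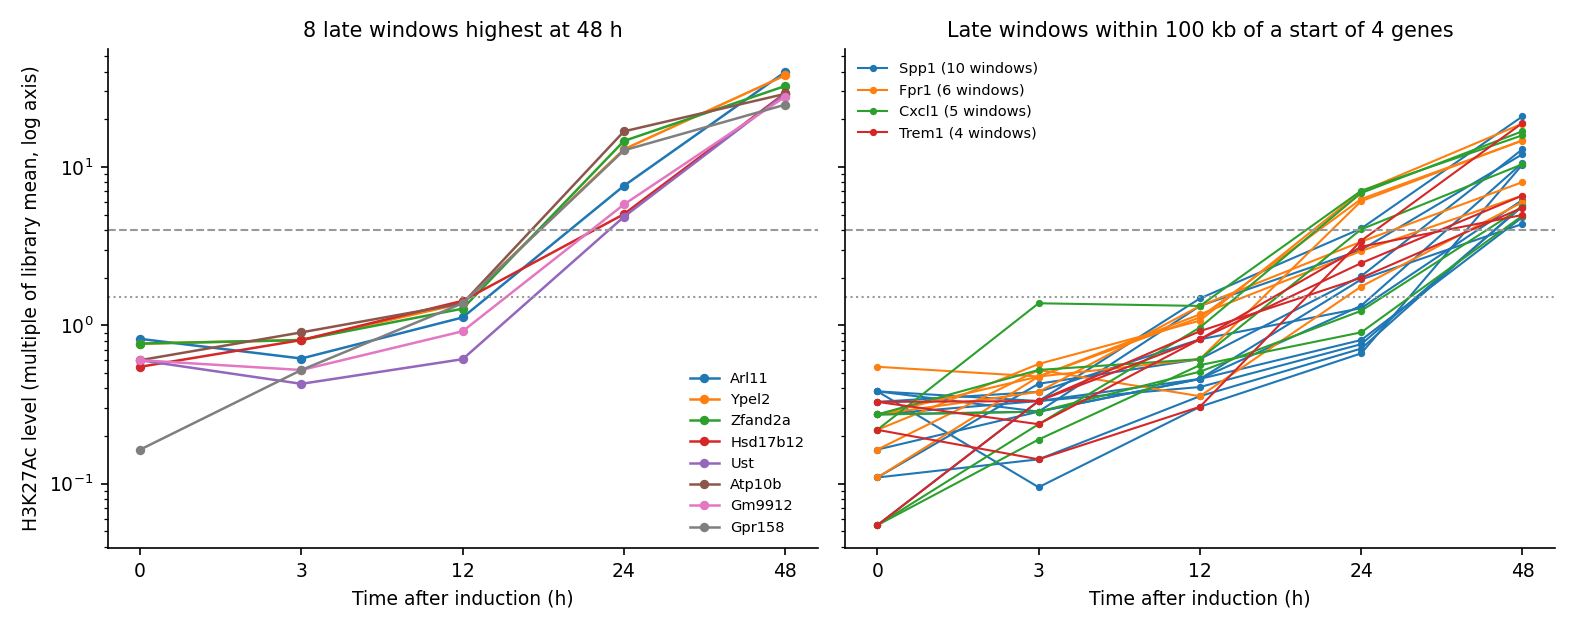
H3K27Ac level (multiple of the library mean, log axis) at 0, 3, 12, 24 and 48 hpi in single late windows, with 1 line per window and the times evenly spaced. The left panel holds the 8 windows highest at 48 hpi and the right panel the late windows within 100 kb of a start of Spp1, Fpr1, Cxcl1 or Trem1. Dotted and dashed lines are the limits of 1.5 and 4. At 24 hpi the left lines lie between 4.84 and 16.8.

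Over all late windows the median H3K27Ac level was 0.44, 0.57, 0.97, 2.28 and 5.43 at 0, 3, 12, 24 and 48 hpi. In eligible windows it was 0.22, 0.28, 0.25, 0.095 and 0.20, so late windows lay above these at all times, while meeting the same low limits. At 48 hpi the limit of 4 set this in advance. The interquartile range was 4.57 to 7.51 at 48 hpi and the highest, the Arl11 window, reached 39.8. Windows just inside the 48 hpi limit held 79 positions (level 4.01), and those just outside it held 78 (level 3.96). Windows just inside the 12 hpi limit held 29 positions (level 1.48), and those just outside it held 30 (level 1.53). Membership at the edge thus turned on a single tag position. Low-start windows that reached the 48 hpi limit but passed 1.5 earlier form the nearest comparison: 3189 first passed it at 12 hpi (12 h windows) and 1995 at 3 hpi (3 h windows). Late windows made up 28.2% of these 3 sets.

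At 24 hpi, a time that the rule did not use, most late windows lay between their low and high levels. H3K27Ac was at 1.5 or more in 1507 of 2035 (74.1%, exact 95% binomial interval 72.1 to 75.9), against 8.68% of all mappable and 0.817% of eligible windows. It had reached 4 in 312 (15.3%, interval 13.8 to 17.0), against 4.81% of mappable windows, 0.0526% of eligible windows and 67.9% of 12 h windows. The remaining 528 windows (25.9%) were still below 1.5. In bulk chromatin, a mark on a share of the cells and a weaker mark on all cells cannot be told apart. The level at 24 hpi exceeded that at 48 hpi in 46 late windows (2.26%), against 26.1% of 12 h windows and 37.2% of 3 h windows, although the 48 hpi limit in the rule favours a high last value. The 24 hpi H3K27Ac library had the lowest median level over all mappable windows, 0.14 against 0.20 to 0.33 in the other 4. Other scalings chose the windows anew by the same rule. Scaling on windows low at all times gave 2675 windows, with 47.2% at 4 or more at 24 hpi. Scaling on windows always enriched gave 3144, with 8.08% there. The share was 28.4% with a 48 hpi limit of 6, 9.17% with a limit of 3 and 9.07% with an early H3K27Ac limit of 1.

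**Figure D2:**
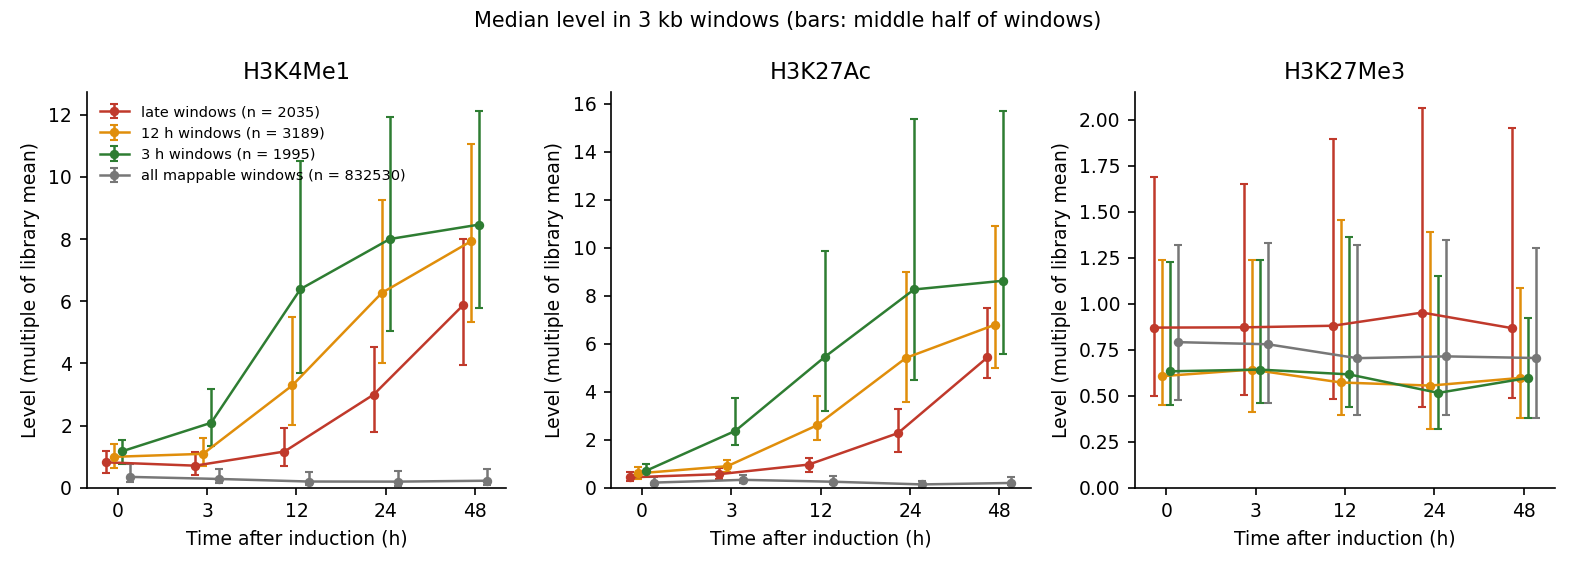
Median level of each mark (multiple of the library mean) against time after induction for late windows, 12 h windows, 3 h windows and all mappable windows, with bars from the lower to the upper quartile and the times evenly spaced. H3K4Me1 in late windows is at 1.17 at 12 hpi, 3.00 at 24 hpi and 5.87 at 48 hpi, below both other low-start sets at each of these times.

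H3K4Me1 was at 2 or more in nearly all late windows at 48 hpi, and in a minority of them at 12 hpi. Its median level was 0.82, 0.71, 1.17, 3.00 and 5.87 over the 5 times. It was at 2 or more in 84 windows at 3 hpi (4.13%), in 476 at 12 hpi (23.4%, interval 21.6 to 25.3), in 1472 at 24 hpi (72.3%) and in 1939 at 48 hpi (95.3%). The shares of all mappable windows were 10.3%, 10.4%, 11.7% and 12.2%, and those of eligible windows were 0.465%, 0.806%, 2.1% and 2.93%. In 12 h windows the shares were 12.6%, 75.4%, 94.6% and 97.6%, so at 12 hpi the difference between the sets was 52.0 percentage points. H3K27Ac at that same time divided the sets, so this difference is a description only. The 12 hpi share of late windows depended on the settings: it was 50.2% with scaling on background windows, 11.7% with scaling on windows always enriched, 10.0% with an early H3K27Ac limit of 1, 14.6% with an H3K4Me1 limit of 1 at 0 hpi, and 7.57% at an H3K4Me1 level of 3. The scalings and limits chose the windows anew.

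Taking 2 as the level for H3K4Me1 and 1.5 for H3K27Ac, the marks first passed their levels at the same sampled time in 1105 late windows (54.3%). H3K4Me1 came first in 655 (32.2%) and H3K27Ac came first in 275 (13.5%), of which 88 had not reached H3K4Me1 of 2 by 48 hpi. In 12 h windows the counts were 2011, 401 and 777 of 3189, or 63.1%, 12.6% and 24.4%. Late windows had more sampled times before their acetylation than 12 h windows, so an earlier H3K4Me1 could be seen in more of them. H3K27Ac was held below 1.5 at 12 hpi by the rule, and the order was not computed under the other scalings, which moved the 12 hpi share of H3K4Me1 as given above. The median H3K27Ac at 24 hpi was 2.37 in the 84 late windows that first had H3K4Me1 at 3 hpi, 3.28 in the 410 that first had it at 12 hpi, 2.42 in the 986 of 24 hpi, 1.33 in the 467 of 48 hpi and 1.45 in the 88 that had not reached it, so the medians did not follow the order of the times throughout. Across the 2035 windows, H3K4Me1 at 12 hpi went with H3K27Ac at 24 hpi (Spearman's coefficient 0.46, Pearson's r 0.39), a description over windows that share libraries and, in part, neighbours. With H3K27Ac at 48 hpi, which the rule cut off at 4, the values were 0.02 and 0.01, and the cut-off keeps these from being compared with those at 24 hpi.

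At 24 hpi both marks were at their levels in 1274 late windows (62.6%), H3K27Ac alone in 233 (11.4%), H3K4Me1 alone in 198 (9.73%) and neither in 330 (16.2%). In the same order the shares were 94.1%, 5.08%, 0.50% and 0.31% of 12 h windows. They were 95.3%, 3.61%, 0.70% and 0.40% of 3 h windows. These states were not counted over all mappable windows. In late windows the median H3K4Me1 at 48 hpi was 6.87 with both, 3.20 with H3K27Ac alone, 6.26 with H3K4Me1 alone and 3.59 with neither.

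Among the 500 late windows strongest in H3K27Ac, the level of H3K4Me1 at 48 hpi ran from 0.69 to 24.9. The lowest was an intronic window over an annotated transcript start of Spp1 that is not its most upstream start. Spp1 encodes osteopontin, a secreted adhesion protein made in quantity by macrophages. This window held 7, 2, 6, 14 and 204 H3K27Ac positions and only 6, 8, 2, 3 and 9 H3K4Me1 positions, so its acetylation at 48 hpi was 10.4 times the library mean with H3K4Me1 below the mean at every time. Next lowest were an intronic window 3.2 kb downstream of the start of Gm5483 with 10 H3K4Me1 positions at 48 hpi (level 0.76), a window 160.3 kb from Oxsm, a mitochondrial fatty acid synthase, with 19 (1.45), and a window upstream of Plcb1, a phospholipase C, with 21 (1.60). Their H3K27Ac positions at 48 hpi numbered 155, 153 and 150. At the other end, the window 10.1 kb upstream of 1500002O20Rik held 25, 47, 108, 266 and 299 H3K4Me1 positions beside 6, 5, 28, 166 and 154 of H3K27Ac. The intronic window of Atp2c2, a Golgi calcium pump, held 19, 29, 61, 159 and 261 beside 1, 9, 24, 147 and 206. The windows near Arhgap26, a GTPase-activating protein, and Ccny, a membrane cyclin, ended with 326 and 309 H3K4Me1 positions. In the Ccny window H3K4Me1 stood at 5 positions at 12 hpi and 28 at 24 hpi, so nearly all of it came in the last interval.

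Around the centre of the 48 hpi acetylation, which is the median tag position of each window, both active marks formed a peak. Within 500 bp of the centre the mean H3K4Me1 level of late windows was 1.07, 1.13, 2.29, 5.50 and 9.31 over the 5 times, and between 1 and 2 kb away it was 0.89, 0.87, 1.32, 2.67 and 4.68. H3K27Ac within 500 bp was 0.58, 0.74, 1.33, 4.66 and 12.0. The 48 hpi H3K27Ac library also placed the centres, which raises its own value there. From 4 to 6 kb away H3K27Ac was 1.13 at 0 hpi and 3.74 at 48 hpi, so the flanks were higher at 48 hpi too.

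**Figure D3:**
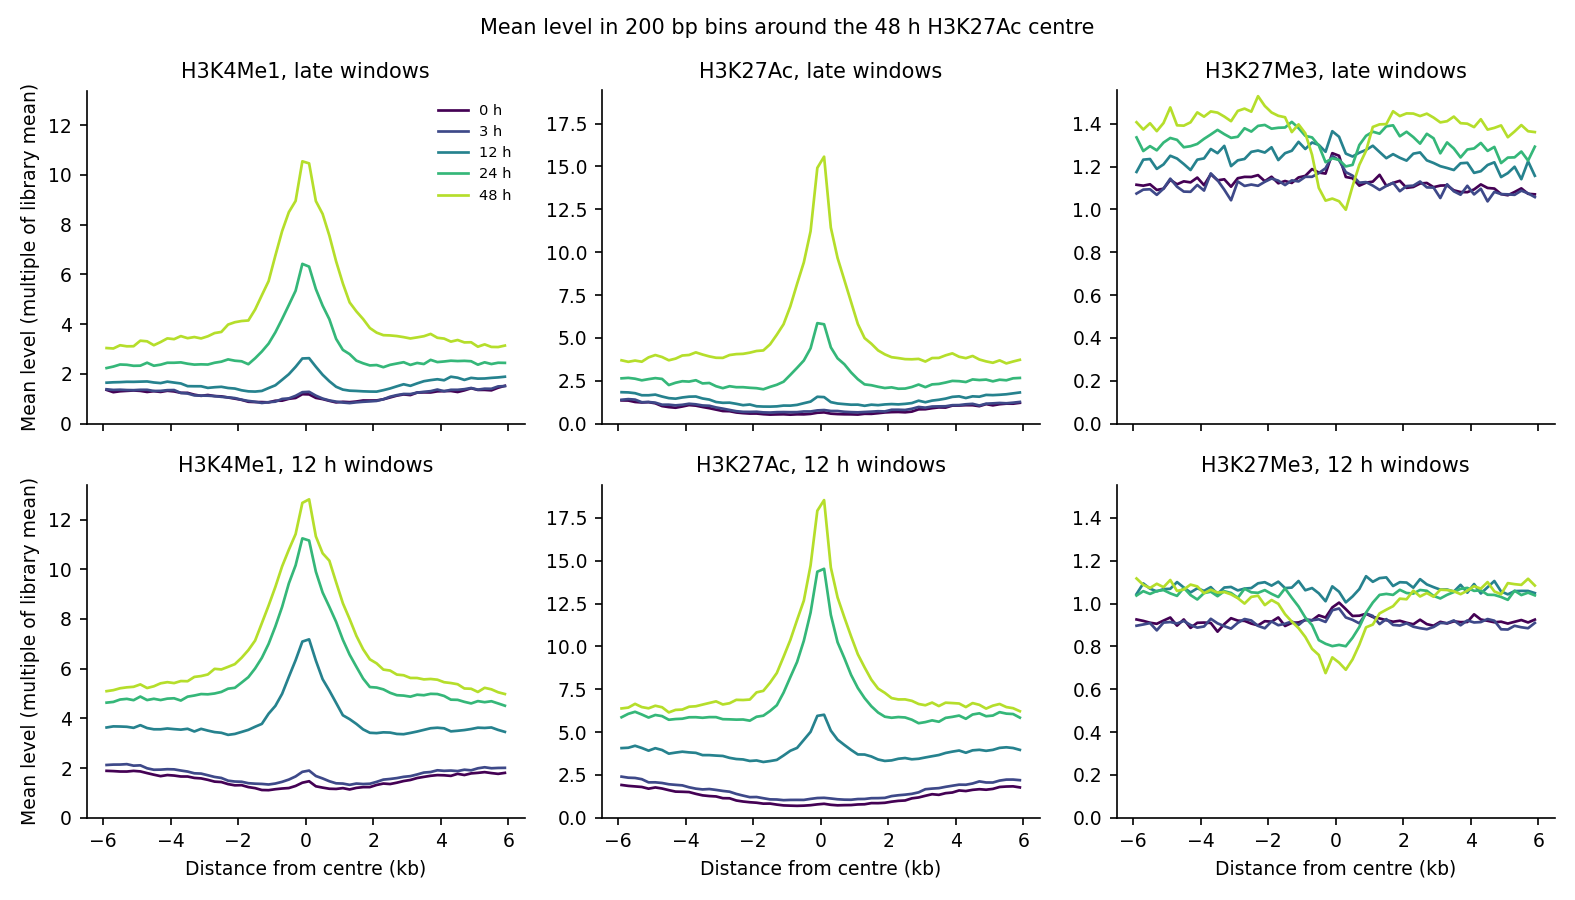
Mean level of each mark (multiple of the library mean) in 200 bp bins against the distance in kb from the centre of the 48 hpi H3K27Ac tags, for late windows (top) and 12 h windows (bottom), with 1 line per time. In late windows the H3K27Me3 line at 48 hpi dips to a mean of 1.06 within 500 bp of the centre, with 1.41 between 1 and 2 kb away.

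H3K27Me3 at a level of 2 or more was more frequent in late windows than in those acetylated earlier. At 0 hpi it was at 2 or more in 367 late windows (18.03%, interval 16.4 to 19.8), against 11.8% of 12 h windows, 11.1% of 3 h windows, 11% of all mappable and 11.2% of eligible windows. At 48 hpi the share was 24.9% in late windows (507 windows, interval 23.0 to 26.9), 10.3% in 12 h windows and 5.81% in 3 h windows, against 13.3% of all mappable and 13.6% of eligible windows. The share at 12 hpi was 22.7% (12% of all mappable windows) and at 24 hpi it was 26.0% (12.6%). The order depended on the level at the early times. At a level of 3 or more at 0 hpi, late windows had 3.14%, 12 h windows 2.38%, 3 h windows 3.01% and all mappable windows 2.53%. At 4 or more at 0 hpi the 3 sets had 0.147% (3 windows), 0.502% and 0.251%. There the share was 0.384% of all mappable and 0.325% of eligible windows. The late share was below both, but its interval of 0.0304 to 0.43 included them. At 12 hpi the 3 sets had 2.51%, 3.04% and 2.66% at 4 or more, against 1.34% of all mappable windows. For 48 hpi these shares were 2.26%, 0.533% and 0.251%, against 1.41% of all mappable windows. The median H3K27Me3 level of late windows was 0.87, 0.87, 0.88, 0.95 and 0.87 over the 5 times. The medians at 0 and 48 hpi were 0.61 and 0.60 in 12 h windows and 0.63 and 0.60 in 3 h windows, and 0.79 and 0.71 in all mappable windows.

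Of the 367 late windows with H3K27Me3 at 0 hpi, 317 (86.4%, interval 82.4 to 89.7) were still at 2 or more at 48 hpi. Among 12 h windows 227 of 376 were (60.4%), among 3 h windows 89 of 221 (40.3%), and among all mappable windows 75984 of 91661 (82.9%). Of the 1668 late windows below 2 at 0 hpi, 190 (11.4%) were at 2 or more at 48 hpi, against 3.66% of such 12 h windows and 4.67% of all mappable windows. The median H3K27Me3 level of these 190 was 1.64 at 0 hpi and 2.44 at 48 hpi. The shares thus count windows that crossed the level, and not windows that began without the mark. The summed H3K27Me3 over late windows corresponded to a mean level of 1.16 at 0 hpi and 1.305 at 48 hpi (exact Poisson intervals 1.15 to 1.17 and 1.29 to 1.32), while 12 h windows stood at 0.94 and 0.89. On the log2 scale the difference in late windows was 0.17, with 0.02 after scaling on windows always enriched and 0.36 after scaling on background windows. Both scalings chose the windows anew. At the very centre the mean H3K27Me3 level went from 1.19 to 1.06, whereas it went from 1.13 to 1.41 between 1 and 2 kb away and from 1.10 to 1.39 between 4 and 6 kb away. A signal from different cells of the culture and one from neighbouring nucleosomes or both alleles of the same cells cannot be told apart in these data.

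The late windows with H3K27Me3 at 0 hpi had a median H3K27Ac of 2.33 at 24 hpi, against 2.23 in the 1668 others. Their median H3K4Me1 at 24 and 48 hpi was 4.001 and 7.32, against 2.80 and 5.64. The 50 windows that were at 2 or more at 0 hpi and below it at 48 hpi had the higher medians at 24 hpi, 3.66 for H3K27Ac and 5.50 for H3K4Me1, while the 317 that stayed at 2 or more had 2.14 and 3.801.

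The 4 late windows with most H3K27Me3 at 0 hpi lay near Gip, a gut hormone, Acta2, smooth muscle actin, Stab1, a scavenger receptor of macrophages, and Tpt1, the translationally controlled tumour protein. The window 7.4 kb upstream of Gip held 160, 84, 85, 94 and 69 H3K27Me3 positions and 5, 6, 3, 44 and 80 of H3K27Ac. The window 12.7 kb upstream of Acta2 held 157, 91, 168, 143 and 99 beside 5, 23, 26, 69 and 133. The intronic window near an annotated transcript start of Stab1 held 156, 65, 134, 102 and 67 beside 6, 13, 22, 52 and 83, and its H3K4Me1 positions numbered 33, 32, 72, 123 and 121. The 0 hpi H3K27Me3 library is the deepest, with a mean of 37.9 positions per window against 18.4 at 48 hpi, so these counts are compared as levels. By level the Acta2 window went from 4.14 to 5.37, the Stab1 window from 4.12 to 3.64 and the Tpt1 window from 3.96 to 5.37. The Gip window went from 4.22 to 3.75, a window that kept its H3K27Me3 while H3K4Me1 reached 9.99.

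**Figure D4:**
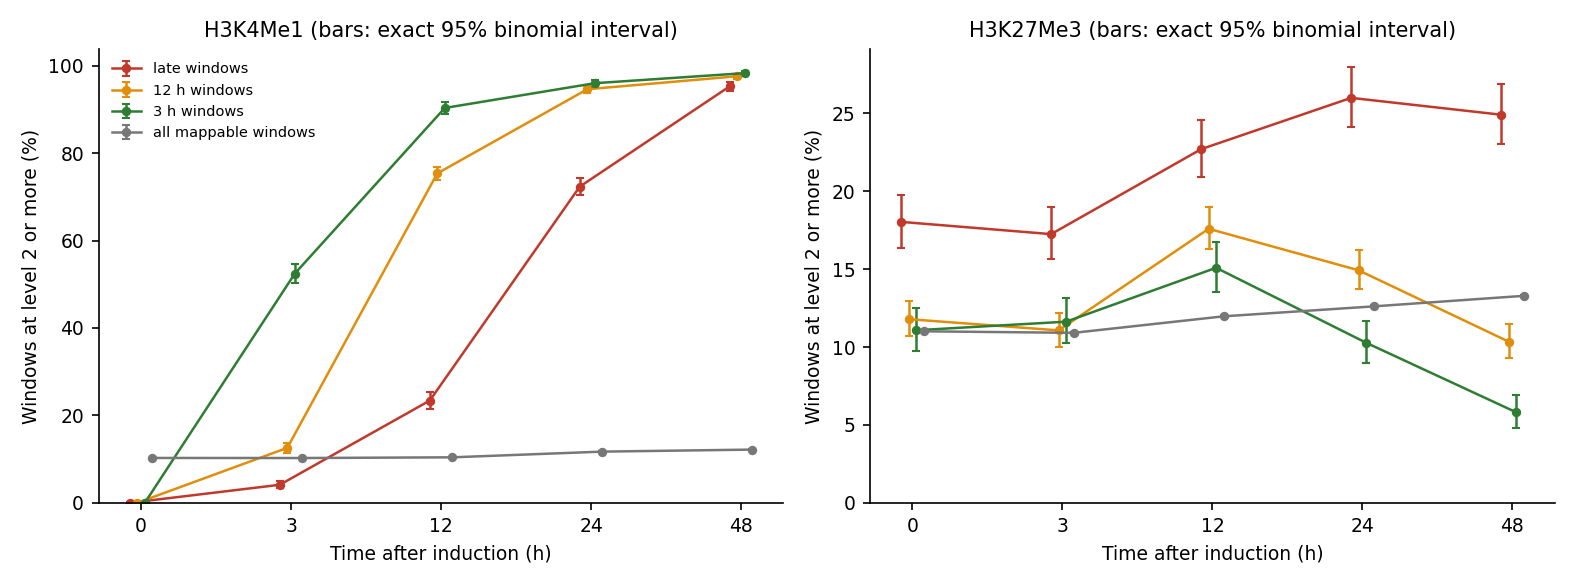
Share of windows at a level of 2 or more (percent) in H3K4Me1 (left) and H3K27Me3 (right) against time, with exact 95% binomial intervals as bars, for late windows, 12 h windows, 3 h windows and all mappable windows. For H3K27Me3 the late windows lie above the other sets at every time, with 18.03% at 0 hpi and 24.9% at 48 hpi.

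Like most windows of the genome, most late windows lay away from gene starts. A transcript start was within 2500 bp of the window centre in 233 (11.4%, interval 10.1 to 12.9), against 15.99% of 12 h windows, 14.5% of 3 h windows, 6.91% of eligible windows, 9.32% of all mappable windows and 36.7% of all windows at 4 or more at 48 hpi. The centre fell in an intron in 53.7%, between genes in 41.4% and in an exon in 4.91%. Between-gene centres made up 29.8% of 12 h windows, 62.0% of eligible and 58.6% of all mappable windows, and intron centres made up 62.6%, 35.2% and 38.0% of these sets. The median distance to a start was 15.1 kb, against 10.6 kb for 12 h windows and 34.3 kb for eligible windows, and 19.3% of late windows were over 50 kb away, against 10.98% of 12 h windows, 40.9% of eligible and 37.2% of all mappable windows. The 233 windows near starts and the 1802 others had median H3K4Me1 levels of 6.03 and 5.797 at 48 hpi. Protein-coding starts were those of every annotated transcript of a protein-coding gene, so such a start can lie inside a gene. Whether such a start lay inside the window was counted in late windows only, without the share of other sets, and this held for 115 (5.65%). The strongest of these after Zfand2a were at Bbs9, a subunit of the ciliary BBSome, with 8, 25, 29, 95 and 417 H3K27Ac positions, at Ciapin1, an iron-sulfur cluster assembly factor, with 18, 22, 24, 74 and 345 in 1 window and 16, 12, 20, 87 and 306 in the next, and at Rptor, a subunit of the mTORC1 kinase complex, with 26, 17, 29, 169 and 292. The windows at Ciapin1 and Rptor had their centres in introns.

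Late windows had acetylated neighbours more often than eligible windows did. An adjacent window had H3K27Ac of 1.5 or more at 12 hpi beside 712 late windows (35.0%), 4.75% of eligible and 13.0% of all mappable windows. The share was 77.7% for 12 h windows, but the same mark, time and limit divided these from late windows, so nothing is read from that difference. The other 1323 late windows had no such neighbour, and their share with H3K27Me3 at 0 hpi was 20.3%, against 13.9% of the 712. Their share with H3K4Me1 at 12 hpi was 20.3%, against 29.2%. At 48 hpi a neighbour was at 4 or more beside 51.7% of late windows, against 71.8% of 12 h windows, 2.61% of eligible and 8.36% of all mappable windows. The 48 hpi limit used the same library, so these shares are a description. Adjacent late windows joined into runs: 1550 stood alone, 198 runs had 2 windows and 29 had 3 or more, with 485 windows (23.8%) in runs. Beside this, 34.5% of 12 h windows and 34.7% of 3 h windows adjoined another of their own set. Of eligible windows, 0.406% adjoined a late window. The longest runs of late windows spanned 12 kb. Between 120.4 and 129.4 kb downstream of the start of Btc, an epidermal growth factor family ligand, 4 windows together held 24, 34, 42, 133 and 646 H3K27Ac positions. At Sh3pxd2b, a scaffold protein of podosomes, the 4 windows from the start into the gene held 15, 22, 60, 610 and 934, with 329, 169, 213, 223 and 149 H3K27Me3 positions, a mean level of 2.17 at 0 hpi and 2.02 at 48 hpi. A run of 9 kb upstream of Rnf149, a ubiquitin ligase, held 10, 29, 46, 160 and 275 beside 340, 169, 291, 306 and 180 of H3K27Me3, which by level was a mean of 2.99 at 0 hpi and 3.26 at 48 hpi.

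The 300 bp with most H3K27Ac at 48 hpi were searched in every late window for 8 motifs on both strands, with overlapping matches to different motifs counted under each, and the AP-1 letters were the most frequent. TGANTCA was found in 321 of 2035 segments (15.8%, interval 14.2 to 17.4), against 12.9% in 12 h windows, 13.2% in 3 h windows, 9.11% in all windows at 4 or more at 48 hpi and 9.67% in all mappable windows. The difference from 12 h windows was 2.92 percentage points, and the interval of the 12 h windows was 11.7 to 14.1. Over the whole 3 kb, late windows held 1.46 AP-1 matches on average, 12 h windows 1.24 and all mappable windows 0.95. The PU.1 letters AGGAAGT were in 11.7% of late segments, 12.2% of 12 h segments, 9.32% of 3 h segments, 10.96% of segments in all windows at 4 or more at 48 hpi and 7.98% of all segments. The C/EBP letters TTGCNNAA were in 13.6% of late segments and 13.4% of all segments, with 11.9% in 12 h windows and 10.6% in all windows at 4 or more at 48 hpi, so by this pattern late windows did not stand above the genome.

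The remaining motifs were near the genome. RUNX (TGTGGTT) was in 7.37% of late and 6.96% of all segments, IRF in 3.98% and 4.74%, the MITF/TFE E-box (TCACGTG) in 1.72% and 1.24%, EBF1 in 0.59% and 0.59%, and NF-κB in 0.29% and 0.24%. None of C/EBP, PU.1, AP-1 and RUNX was found in 1227 late segments (60.3%), and C/EBP and PU.1 together were in 35 (1.72%). Such joint counts were made for late windows only, without the share of other windows, so nothing is read from them. In the 476 windows with H3K4Me1 at 12 hpi, PU.1 letters were in 15.3% of segments, against 10.6% of the 1559 without, while AP-1 was in 15.8% of both. The 367 windows with H3K27Me3 at 0 hpi had AP-1 in 15.8% and PU.1 in 13.4%. Letters in a segment are a description and not a bound site. The median GC content of late windows was 43.2%, between 44.8% for 12 h windows and 41.3% for all mappable windows.

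**Figure D5:**
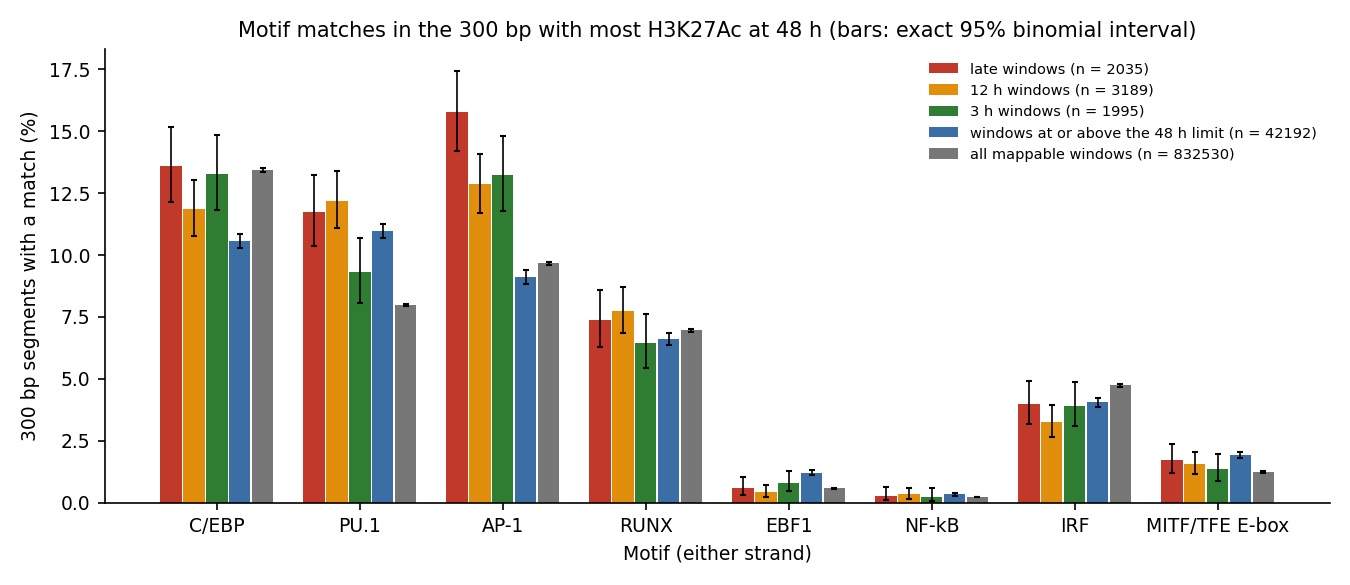
Share of 300 bp segments with a match to each of 8 motifs (percent, either strand) in late windows, 12 h windows, 3 h windows, all windows at a level of 4 or more at 48 hpi and all mappable windows, with exact 95% binomial intervals. The AP-1 bar of late windows stands at 15.8% and that of all mappable windows at 9.67%.

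Genes of the macrophage surface, of inflammation and of matrix breakdown often had a late window nearby. Of 22208 protein-coding genes, 3817 (17.2%) had a late window within 100 kb of a start. In a list of matrix protease and adhesion genes 10 of 15 did, among phagocyte surface receptors 11 of 20, among pattern recognition and inflammation genes 13 of 26, among lipid handling genes 6 of 14 and among lysosomal genes 8 of 22. T-lineage genes followed with 5 of 14, of which Cd3d, Cd3e and Cd3g share the same windows. Myeloid transcription factors had 9 of 31, oxidase and granule genes 4 of 15, cytokine receptors 4 of 18 and chemokines and their receptors 4 of 19, closer to the genome's share. The share was 1 of 11 for antigen presentation, 1 of 12 for genes that every cell uses, 1 of 15 for genes of other tissues and 1 of 21 for the B lineage. The listed transcription factor genes Cebpd, Tfec, Tfe3 and Tfeb, and Sox1 of the other-tissue list, were not found in the annotation and not counted. Neighbouring genes of a list share windows, so the genes are not independent, and no set test was made. All 13 inflammation genes and all 11 phagocyte receptor genes with a late window also had a 12 h or 3 h window within 100 kb, as did 2317 of the 3817 protein-coding genes with a late window, while 3 of the 4 such chemokine genes had none. By themselves, 12 h windows lay within 100 kb of 14 of the 19 chemokine genes and 19 of the 26 inflammation genes, against 5686 of 22208 protein-coding genes (25.6%).

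Spp1 had more late windows within 100 kb than any other gene, 10, with 1 12 h window and no 3 h window. Of these, 9 lay between 27.6 and 90.6 kb upstream and the other was the intronic window over a transcript start described above. Mepe, Ibsp and Pkd2, within the same stretch, had 8 or 9 of them within 100 kb. The strongest, 51.6 kb upstream, held 1, 7, 29, 86 and 411 H3K27Ac positions and 7, 4, 38, 68 and 114 of H3K4Me1. Windows 42.6 and 57.6 kb upstream ended with 255 and 237 H3K27Ac positions, after 43 and 63 at 24 hpi. All 10 windows had more H3K27Ac positions at 48 hpi than at 24 hpi, from 86 to 411 against 14 to 86. The intronic window alone stayed below an H3K4Me1 level of 2 at all times.

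Fpr1 and Fpr2, receptors for bacterial formyl peptides on phagocytes, shared 6 late windows. The highest, 10.4 kb downstream of the start of Fpr1, held 4, 12, 21, 147 and 370 H3K27Ac positions. A window over the start of Fpr2 held 10, 10, 22, 132 and 289 and the next 2, 10, 12, 128 and 290. By level, H3K27Me3 lay between 1.48 and 2.64 in the 6 windows at 0 hpi and between 2.44 and 4.07 at 48 hpi, and was higher at 48 hpi in 5 of the 6. Cxcl1 and Cxcl2, chemokines that draw neutrophils, shared 5 windows, with neither a 12 h nor a 3 h window within 100 kb. The highest of these, 5.4 kb upstream of Cxcl2, held 1, 5, 19, 144 and 331 H3K27Ac positions beside 78, 34, 38, 42 and 17 of H3K27Me3, or a level of 2.06 at 0 hpi and 0.92 at 48 hpi. In the other 4 the H3K27Me3 level went from 1.61 to 1.41, from 1.06 to 1.79, from 2.32 to 2.33 and, over the start of Cxcl2, from 2.96 to 3.09. Trem1, an amplifying receptor of inflammation, and Trem2, a lipid-sensing receptor, each had 4 and shared 3. The window 49.4 kb upstream of Trem1 held 4, 3, 6, 72 and 373, and the shared windows between 19.2 and 28.2 kb upstream of Trem2 held 98, 130 and 109 at 48 hpi after 66, 52 and 42 at 24 hpi.

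Among the lipid and lysosome genes, Plin2, which coats lipid droplets, had 5 late windows. An intronic window over an annotated Plin2 transcript start that is not its most upstream start held 9, 7, 26, 72 and 136 H3K27Ac positions. Ctsk and Ctsl encode lysosomal cysteine proteases. A window 26.9 kb upstream of Ctsl held 3, 5, 16, 121 and 254, and the window at the start of Ctsk held 10, 6, 18, 46 and 101. Adam8, a membrane metalloprotease of leukocytes, had adjacent windows at annotated transcript starts with 8, 6, 26, 142 and 200 and 4, 7, 19, 51 and 93 positions. Mitf, a transcription factor of macrophages and osteoclasts, had a pair in an intron 11.4 and 14.4 kb downstream of the start, with 99 and 106 H3K27Ac positions at 48 hpi. Bach1, a heme-regulated repressor, had an intronic window with 19, 12, 27, 54 and 157.

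The receptors Tgfbr1 and Tnfrsf1b, for TGF-β and tumour necrosis factor, had 2 late windows each. The Tgfbr1 pair, over 40 kb downstream of its start, held 114 and 109 H3K27Ac positions at 48 hpi, and the stronger Tnfrsf1b window held 10, 13, 27, 49 and 146. Cd80, a costimulatory ligand of antigen-presenting cells, had 3 upstream windows that ended between 81 and 92 positions. Lcn2, an iron-scavenging granule protein, had 1 that ended with 162. Outside the myeloid lists, the window near Syt1, a synaptic vesicle protein, ended with 236, those near Pgk1, a glycolytic enzyme, with 128 and 148, the 3 near Cd3d and Cd3e with 89 to 137, and that 95.1 kb from the B-cell receptor gene Cd79a with 109. Windows were tied to genes by distance alone.

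The libraries held 10913733 to 31541879 distinct positions. At the starts of 21 B-lineage genes the median H3K27Ac level was 44.0 at 0 hpi and 12.8 at 48 hpi, with 20 lower at 48 hpi. At 20 phagocyte receptor genes it was 0.82 and 9.19, with 15 higher, and at 14 T-lineage genes it was 0.60 and 0.56, with 11 lower. At 12 genes that every cell uses it was 17.3 and 19.8, with 9 lower.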

How the data were processed

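Chromatin of C10 cells was immunoprecipitated for 3 histone marks at 5 times, with 1 library each, 15 in all, grouped by the mark and time in the labels. The authors aligned the reads without mismatches to build mm9, using Bowtie or Eland (which was used for which file, and the versions, are not given in the sources used here), removed identical tags by their account, and deposited the position of each aligned tag of 36 bp, without strand. No input library was used here.

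Tag midpoints repeated within a library were counted once. The deposited positions of H3K27Me3 at 0 and 48 hpi held no repeats, and 3 files held 2 lines without a position, which were left out. Libraries had 10913733 to 31541879 distinct positions, or 13.1 to 37.9 per 3 kb window, which sets the counting error of each level. Levels, member sets, distances and motif matches were computed with Python 3.11.15, numpy 2.4.6, pandas 2.3.3 and scipy 1.17.1, and plots with matplotlib 3.10.9. None of the 259404327 positions fell in unknown bases of NCBIM37, and genes came from GENCODE vM1 on that build. The call levels were 2 for H3K4Me1 and H3K27Me3 and 1.5 or 4 for H3K27Ac. Scripts were tested on simulated counts.

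Windows were named by the nearest protein-coding start. Those named were the 8 highest in H3K27Ac at 48 hpi, the 5 highest over a protein-coding start, the 4 highest in H3K27Me3 at 0 hpi, the 4 highest and 4 lowest in H3K4Me1 at 48 hpi among the 500 strongest, the 3 longest runs, and the windows of the 2 genes with most late windows in each gene list. The windows of some genes that this rule names are not reported here. The members, gene lists and motifs were chosen with earlier results of these data known. Since every mark was sampled by 1 library at a time, times were not tested against each other, and shares carry exact binomial and sums exact Poisson intervals. Alternatives changed the scaling, the limits, the grid, the handling of repeats, the segment and the gene distance.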

Additional observations from a re-analysis of the deposited data

How the results depend on the processing

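No paired analysis was possible because the samples carry no replicate numbers. None of the results reversed, and the differences between late and 12 h windows kept their sign under the alternatives run: H3K4Me1 at 12 hpi differed by -57.4 to -40.0 percentage points, H3K27Me3 at 0 hpi by 4.17 to 8.47 and at 48 hpi by 12.4 to 17.8, nearness to a start by -6.17 to -2.56, and AP-1 by 1.61 to 3.83. The ends of 8.47, 17.8 and -6.17 came from leaving out windows next to one acetylated at 12 hpi. That setting changed the late set only and left the 12 h windows whole, so its sets are unlike. The H3K4Me1 difference is between sets that H3K27Ac at 12 hpi divided, so its constant sign is a description only. The AP-1 difference had an interval of 0.92 to 4.91 as reported, and at a 48 hpi limit of 6, where it was 1.61, its interval of -1.26 to 4.47 included 0. The H3K27Me3 call level was not among these alternatives, and at a level of 4 the share at 0 hpi was lower in late windows (0.147%) than in 12 h windows (0.502%). The levels themselves moved with the scaling and the limits, and the cause was not tested. Scaling on background windows gave 2675 windows. Of these, 47.2% were at 4 or more in H3K27Ac at 24 hpi and 50.2% had H3K4Me1 at 12 hpi, with a log2 H3K27Me3 change of 0.36. Scaling on windows always enriched gave 3144 windows, 8.08%, 11.7%, 19.97% with H3K27Me3 at 48 hpi and a log2 change of 0.0182.

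A 48 hpi limit of 3 gave 3675 windows, 9.17% at 4 in H3K27Ac at 24 hpi, 21.5% with H3K4Me1 at 12 hpi, H3K27Me3 in 15.9% and 22.7% (0 and 48 hpi), a log2 change of 0.19 and 6302 genes within 100 kb. A limit of 6 gave 825 windows, 28.4% in H3K27Ac at 24 hpi, 20.5% with H3K27Me3 at 0 hpi, a log2 change of 0.14, AP-1 in 14.1% and 1765 genes. An early H3K27Ac limit of 1 gave 970 windows, 9.07%, H3K4Me1 in 10.0%, H3K27Me3 in 23.3% and 33.3%, a log2 change of 0.23, 7.84% near a start and 1888 genes. Without windows next to one acetylated at 12 hpi, 1323 windows remained, with H3K4Me1 in 20.3%, H3K27Me3 in 20.3% and 28.1%, 9.83% near a start and 2470 genes. A limit of 1 on H3K4Me1 at 0 hpi gave 14.6% with H3K4Me1 at 12 hpi and a log2 change of 0.22, and an H3K4Me1 call at 3 gave 7.57%. Taking H3K27Me3 over 9 kb gave 16.1%, 27.6% and a log2 change of 0.27. The middle 300 bp of each window held AP-1 in 13.8%, and 2234 genes lay within 50 kb.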

Other observations

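Late windows were found on all 20 chromosomes examined, with 57 on X, or 2.80% of late windows against 6.67% of eligible windows, 1.76% of 12 h windows, 2.96% of 3 h windows and 2.03% of all windows at 4 or more at 48 hpi. Beyond the listed genes, Cxcl3 had 7 late windows within 100 kb, Cxcl5 and Cxcl15 6 each, and Aqp9, a water and glycerol channel, 6. Cxcl15 had no 12 h or 3 h window within that distance, while Cxcl3, Cxcl5 and Aqp9 each had 2 12 h windows and no 3 h window. These genes were picked from those with most late windows after their values were seen, and neighbouring genes share windows. Genes not picked ranked as high or higher, such as Gm10047 with 9 late windows and Fndc3a, Lactb, Pak1ip1 and Rps27l with 7 each. Aldh1a2, Ccny, Gcnt2 and Gda had 6 each.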
